A study of Homo sapiens with 6 samples.

Results

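A set of 10 genes of the Krüppel-like factor family was followed in PC-3 cells with lowered MTA1: KLF2, KLF3, KLF4, KLF5, KLF6, KLF7, KLF9, KLF10, KLF11 and KLF13. They were taken by symbol from the deposited count table, where these 10 were found among 30651 listed genes, and all 10 passed the filter on low counts that left 15423 genes for testing. PC-3 cells are a human line derived from prostate cancer that had spread to bone, and 6 libraries of their total RNA were sequenced, 3 labelled Ctrl and 3 labelled MTA1. The columns of the first group carry the prefix NC and those of the second the prefix shMTA1, where sh usually stands for short hairpin RNA, and the protocol names lentivirus and the screening of stable clones for all 6 libraries. The labels do not say how many hairpins or clones were used, what NC stands for, or whether the libraries came from separate cultures, so p-values speak only of the variation among these 6 libraries, which may be technical.

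Krüppel-like factors are transcription factors that bind GC-rich and CACCC-type DNA through zinc fingers at the end of the protein, and the SP factors share this fold. Their other ends differ and recruit different partners. KLF2, KLF4, KLF5, KLF6 and KLF7 are best known as activators that can bind acetyltransferases, KLF3 recruits the CtBP co-repressors, and KLF9, KLF10, KLF11 and KLF13 recruit the SIN3A co-repressor. In prostate epithelium KLF4, KLF5 and KLF6 are the best studied, as regulators of differentiation and growth.

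The libraries held 29909172 to 33849262 counts, and replicates of a group varied by 4.45% over the tested genes (biological coefficient of variation). The targeted gene MTA1 had 1185, 1331 and 1352 counts for Ctrl and 528, 572 and 519 for the MTA1 group, a log2 fold change of -1.21 ± 0.054 (SE, n = 3 per group, edgeR adjusted p = 4.3e-13), the direction of a knockdown. Expression is stated in CPM, that is counts divided by each library's TMM-scaled size. The epithelial keratin KRT8, a PC-3 marker, stood at 1886 ± 43.9 CPM in Ctrl and 1541 ± 56.9 CPM in the MTA1 group (SD, n = 3), and the surface marker CD44 at 307 ± 10.7 and 510.1 ± 4.36 CPM. KLK3, the prostate-specific antigen gene, had at most 1 count in a library. Of 6 leukocyte markers 5 were listed, with a summed level of 1.52 to 2.11 CPM for Ctrl and 1.06 to 1.51 CPM for the MTA1 group, and PTPRC, their defining marker, had at most 3 counts. The 8 fibroblast markers had a summed level of 78.7 to 88.0 CPM for Ctrl and 114 to 115 CPM for the MTA1 group. Of the 7 fibroblast markers tested, 1 rose, 2 fell and 4 did not pass. THY1, a surface glycoprotein, rose (log2 fold change 1.26 ± 0.052). COL1A1, a collagen chain, fell (-0.94 ± 0.056), as did the receptor PDGFRB (-0.50 ± 0.132, 72 to 118 counts). LUM, with 378 to 466 counts, and COL3A1, with 59 to 98, were among those that did not pass. The receptor PDGFRA had at most 5 counts, and it alone of the 8 had a mean under 1 CPM. The part of these marker genes in the results below was not tested.

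Most of these KLF genes were lower in the MTA1 group. With a threshold of 0.05 on the adjusted p of edgeR's quasi-likelihood test, 7 of the 10 fell, 1 rose and 2 did not pass. Among all tested genes 28.6% fell and 29.5% rose at the same threshold, 58.1% in all. The genes that fell were KLF5, KLF9, KLF10, KLF2, KLF13, KLF6 and KLF11, the gene that rose was KLF4, and KLF3 and KLF7 did not pass. The median log2 fold change of the 10 was -0.44, against 0.002 over all tested genes, whose middle 50% lay between -0.28 and 0.303. When the test asked for more than a 1.2-fold change, 5 of the 10 were lower (KLF5, KLF9, KLF10, KLF13 and KLF6) and none was higher, against 14.7% lower and 15.5% higher among all tested genes (30.1% in all). On log2(FPKM + 0.1) the calls of KLF6 and KLF13 over 1.2-fold ended (limma adjusted p = 0.292 and 0.278), and on log2(FPKM + 1) that of KLF9 ended too (0.26). No overlap between the CPM values of the groups was seen for 8 of the 10, 7 lower and 1 higher, against 30.6% lower and 32.1% higher among all tested genes (62.7% in all). As these are bulk libraries, fewer cells with a transcript and less of it per cell cannot be told apart.

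**Figure D1:**
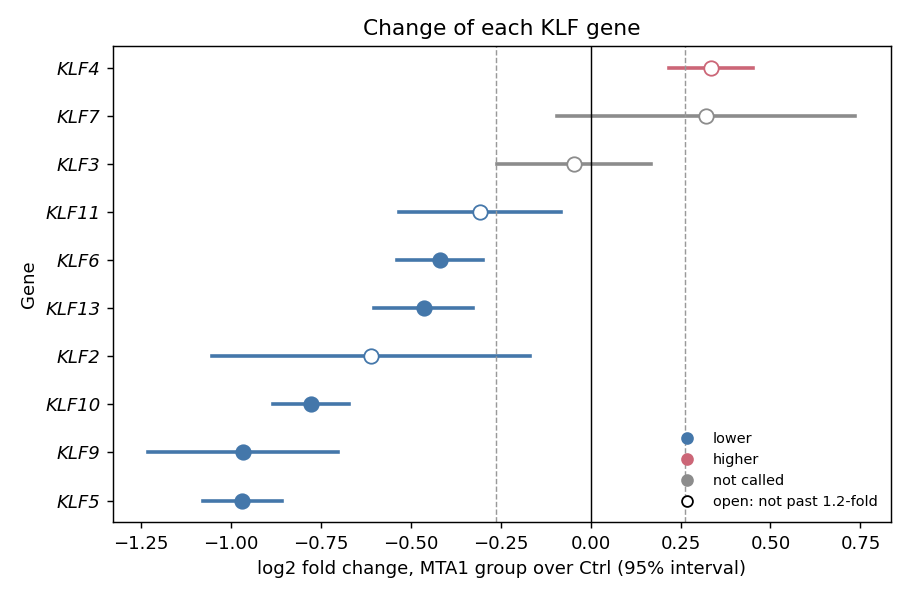
log2 fold change of each KLF gene, MTA1 group over Ctrl, from 3 libraries per group (x axis), with its 95% interval from the edgeR fit. Filled points passed the test for a change over 1.2-fold (dashed lines), and KLF5 and KLF9 lie lowest at -0.97 while KLF4 lies highest at 0.33.

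Levels per length differed widely within the family. In FPKM, the deposited values scaled for gene length, KLF10 was the most abundant member in Ctrl at 18.1 ± 0.6001 (SD, n = 3). It was followed by KLF5 at 7.97 ± 0.275, KLF4 at 5.03 ± 0.267, KLF6 at 3.22 ± 0.0924 and KLF13 at 1.69 ± 0.0862 FPKM. KLF11 (0.980 ± 0.10 FPKM) and KLF9 (0.963 ± 0.124 FPKM) overlapped in their libraries and could not be ordered. Below them stood KLF3 at 0.720 ± 0.0436, KLF2 at 0.480 ± 0.0964 and KLF7 at 0.123 ± 0.0153 FPKM. Every other neighbouring pair of this order was parted without overlap between its libraries.

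In the MTA1 group KLF10 was still first, at 11.1 ± 0.670 FPKM, but KLF4 (6.65 ± 0.114 FPKM) stood above KLF5 (4.26 ± 0.0115 FPKM). KLF3 (0.727 ± 0.0723 FPKM) stood above KLF9 (0.517 ± 0.0635 FPKM) and overlapped with KLF11 (0.833 ± 0.0306 FPKM), the one neighbouring pair that overlapped. KLF6, KLF13, KLF2 and KLF7 kept ranks 4, 5, 9 and 10.

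**Figure D2:**
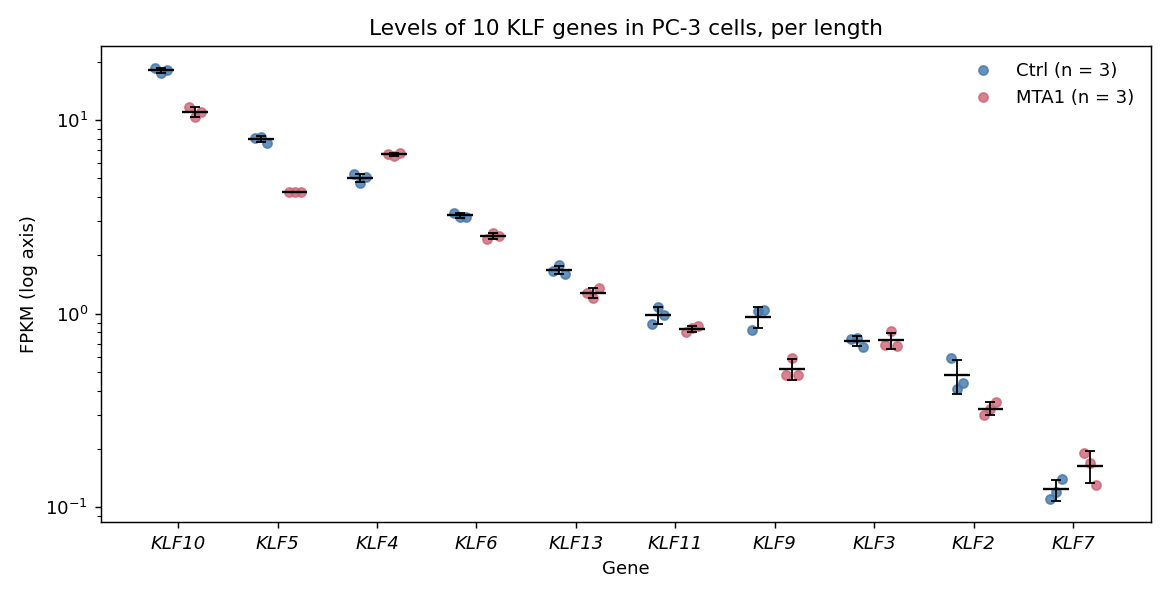
FPKM (log axis) of the 10 KLF genes in each of 3 Ctrl and 3 MTA1 libraries, ordered by the Ctrl mean; horizontal lines are means and bars are SD. KLF4 moves from below KLF5 in Ctrl (5.03 against 7.97) to above it in the MTA1 group (6.65 against 4.26).

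The summed FPKM of the 10 genes was 40.2, 38.7 and 38.9 in the Ctrl libraries (replicates 1, 2 and 3, the order used throughout) and 28.9, 27.7 and 28.5 in the MTA1 libraries. The mean in the MTA1 group was 72.2% of that in Ctrl. KLF10 made up 45.2% to 46.6% of this sum in Ctrl libraries and 37.5% to 40.6% in MTA1 libraries. KLF4 took 12.3% to 13.1% of it in Ctrl libraries and 23.2% to 23.7% in MTA1 libraries, and KLF5 went from between 19.7% and 21.0% to between 14.8% and 15.4%. The 10 genes held 86.3% to 87.5% of the FPKM of all 17 KLF genes in Ctrl libraries and 81.6% to 82.6% in MTA1 libraries, and KLF16 held most of the remainder.

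**Figure D3:**
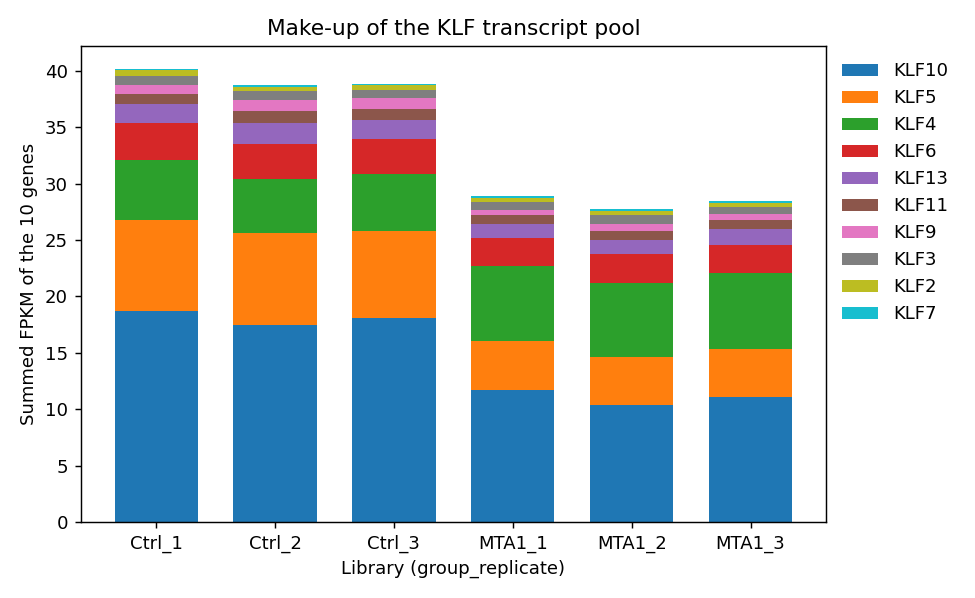
Summed FPKM of the 10 KLF genes in each library, stacked by gene. The sum lies between 38.7 and 40.2 in the Ctrl libraries and between 27.7 and 28.9 in the MTA1 libraries, and the KLF4 segment is the one that is visibly taller in the MTA1 group.

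KLF5 (ENSG00000102554.14, chromosome 13), an activator linked to proliferation of basal epithelial cells, had the lowest fold change of the family. It had 34.7, 34.4 and 32.7 CPM in Ctrl and 17.5, 17.4 and 17.2 CPM in the MTA1 group. The groups were far apart, and the SD of the MTA1 libraries was 0.868% of their mean, below the 3.50% that counting alone gives at the mean count of this gene. Its log2 fold change was -0.97 ± 0.053 (edgeR adjusted p = 5.9e-12), which left 51.1% of the control level.

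KLF4 (ENSG00000136826.15, chromosome 9), one of the factors used to reprogram cells to pluripotency and a regulator of epithelial differentiation, rose. It had 22.6, 19.97 and 21.6 CPM in Ctrl and 27.2, 26.5 and 27.1 CPM in the MTA1 group. Every MTA1 library was above every Ctrl library, and the gap was small. The log2 fold change was 0.33 ± 0.056 (edgeR adjusted p = 3.6e-05), with a 95% interval of 0.22 to 0.45, and the test for more than 1.2-fold did not pass (adjusted p = 0.099). It did pass under scaling by library size only (adjusted p = 0.0102). KLF4 and KLF5 are known for opposite effects on epithelial growth, so their ratio was taken per library. This and the 2 other ratios of related members were chosen after the values were seen. The KLF5 to KLF4 ratio in FPKM was 1.53, 1.72 and 1.51 in Ctrl and 0.637, 0.655 and 0.632 in the MTA1 group. The groups did not overlap, and the 2-sided exact permutation test gave p = 0.10, the smallest that 3 against 3 libraries allow (0.15 after Benjamini-Hochberg adjustment over 3 ratios).

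KLF6 (ENSG00000067082.15, chromosome 10), described as a growth suppressor in prostate cancer, fell. It had 23.9, 22.4 and 22.6 CPM in Ctrl and 16.6, 17.8 and 16.98 CPM in the MTA1 group, with no overlap. This left 74.7% of the level in Ctrl (a log2 fold change of -0.42 ± 0.057, edgeR adjusted p = 2.9e-06). The call for more than 1.2-fold (adjusted p = 0.0065) ended under scaling by library size only (0.0628).

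KLF2 (ENSG00000127528.6, chromosome 19), known from endothelial cells under flow and from resting T cells, was near the limit of what this depth resolves. It had 60, 43 and 47 counts in Ctrl and 29, 32 and 34 in the MTA1 group, or 1.94, 1.31 and 1.43 CPM against 0.951, 1.01 and 1.10 CPM. Ctrl replicate 1 stood above the other two, and the groups did not overlap. KLF2 passed as lower at a log2 fold change of -0.61 ± 0.211 (edgeR adjusted p = 0.018), with a 95% interval of -1.05 to -0.17. The call was lost without Ctrl replicate 1 (-0.44, adjusted p = 0.116) or MTA1 replicate 1 (-0.56, 0.0538) and with DESeq2 (-0.62, 0.0926). KLF7 (ENSG00000118263.15, chromosome 2), best known from the outgrowth of neurons, was the scarcest member with 36, 42 and 49 counts in Ctrl and 58, 55 and 40 in the MTA1 group. Its groups overlapped, since MTA1 replicate 3 at 1.29 CPM lay between Ctrl replicates 2 (1.28) and 3 (1.49). Its log2 fold change of 0.32 ± 0.199 did not pass (edgeR adjusted p = 0.18), and the 95% interval of -0.09 to 0.74 takes in both no change and the change seen in KLF4.

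The 4 members that recruit SIN3A each passed as lower, as 28.6% of all tested genes did. KLF10 (ENSG00000155090.15, chromosome 8), first described as an early gene induced by TGF-beta, had 83.3, 76.8 and 80.4 CPM in Ctrl and 49.8, 44.1 and 46.5 CPM in the MTA1 group. The groups were well apart, and with 1397 to 2646 counts per library it was the most precisely counted member. It fell to 58.3% of the level in Ctrl (a log2 fold change of -0.78 ± 0.051, edgeR adjusted p = 8.8e-11). KLF11 (ENSG00000172059.11, chromosome 2), its nearest relative and likewise induced by TGF-beta, had 4.69, 5.71 and 5.23 CPM in Ctrl and 4.07, 4.26 and 4.32 CPM in the MTA1 group. The groups did not overlap, but Ctrl replicate 1 lay close to the MTA1 libraries. Its log2 fold change of -0.31 ± 0.108 passed narrowly (edgeR adjusted p = 0.0199). The call ended without Ctrl replicate 2 (-0.24, adjusted p = 0.0955) or MTA1 replicate 1 (-0.28, 0.0589), with scaling by library size only (0.0669), with DESeq2 (0.109) and on log2(FPKM + 0.1) and log2(FPKM + 1) (0.0874 and 0.0793). The KLF10 to KLF11 ratio in FPKM was 21.2, 16.2 and 18.5 in Ctrl and 14.7, 12.4 and 12.9 in the MTA1 group, without overlap (2-sided exact permutation p = 0.10, the smallest possible, and 0.15 adjusted over 3 ratios).

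KLF9 (ENSG00000119138.5, chromosome 9), a gene induced by glucocorticoids and thyroid hormone, had 4.98, 6.14 and 6.26 CPM in Ctrl and 2.76, 3.41 and 2.74 CPM in the MTA1 group. Ctrl replicate 1 and MTA1 replicate 2 were the closest libraries and were still parted. KLF9 fell to 51.2% of the level in Ctrl (a log2 fold change of -0.97 ± 0.126, edgeR adjusted p = 1.7e-06). KLF13 (ENSG00000169926.11, chromosome 15), studied most in lymphocytes, had 18.3, 19.3 and 17.6 CPM in Ctrl and 13.4, 12.5 and 14.1 CPM in the MTA1 group, without overlap. KLF13 fell to 72.5% of the level in Ctrl (a log2 fold change of -0.46 ± 0.065, edgeR adjusted p = 4.5e-06). The KLF13 to KLF9 ratio in FPKM was 2.04, 1.73 and 1.55 in Ctrl and 2.67, 2.03 and 2.83 in the MTA1 group. Here the groups touched, with Ctrl replicate 1 just above MTA1 replicate 2 (2-sided exact permutation p = 0.20, and 0.20 adjusted over 3 ratios), in a design that cannot go below 0.10. The 95% intervals of the log2 fold changes were -1.23 to -0.703 for KLF9 and -0.601 to -0.33 for KLF13.

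KLF3 (ENSG00000109787.13, chromosome 4), the repressor that recruits CtBP, showed no change that passed. It had 5.83, 5.80 and 5.26 CPM in Ctrl and 5.18, 6.09 and 5.06 CPM in the MTA1 group, and the libraries of the groups were interleaved. The log2 fold change was -0.05 ± 0.102 (edgeR adjusted p = 0.72), with a 95% interval of -0.26 to 0.17, which leaves out the changes seen in KLF5, KLF9 and KLF10. Its sign turned positive under scaling by library size only (0.022), without MTA1 replicate 3 (0.0057) and on log2(FPKM + 0.1) and log2(FPKM + 1) (0.0095 and 0.0051). Few reads were listed for the transcripts and pseudogenes named after members. The KLF3 antisense RNA had 5 to 11 counts per library, and KLF2-DT, KLF7-IT1, KLF3P1 and KLF7P1 had at most 2.

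Promoter windows from RefSeq (build GRCh38.p14) were used for 8 of the 10 members, with 13 listed starts for them. No window of KLF3 or KLF10 was part of this search, so their promoters were not examined. The 250 bases before each start were searched on both strands for CACCC, the core that Krüppel-like factors bind, and for GGGCGG, the GC box bound by SP and Krüppel-like factors; the 2 motifs can overlap by a few bases. CACCC was in windows of 4 of the 8 genes (6 of 13 windows, against 54.7% of all 35116 RefSeq windows), and GGGCGG was in windows of 7 of the 8 (8 of 13 windows, against 42.6%). GGGCGG stood in at least 1 window of KLF2, KLF5, KLF6, KLF11 and KLF13, which fell. It also stood in a window of KLF4, which rose, and of KLF7, which did not pass, while the KLF9 window held neither motif. The motif for cyclic AMP response, TGACG, was in 4 of the 13 windows (21.2% of all windows), and the CArG box of serum response factor was in 1 of the 13, a KLF7 window (1.2% of all windows). Also searched were CCAAT, in 6 of the 13 (32.0% of all windows), and TATAAA, in 1 of the 13 (10.7%). The GC share of the 13 windows ran from 32.4% to 80.0%, beside a median of 58.0% over all windows. The sequences are the 150 bases before the start, printed 5′ to 3′ on the gene's strand, for the member that rose and for a pair that fell, KLF5 with both of its listed starts and KLF13, with CACCC and GGGCGG on either strand in capitals.
KLF4, chr9:107489770-107489919, minus strand: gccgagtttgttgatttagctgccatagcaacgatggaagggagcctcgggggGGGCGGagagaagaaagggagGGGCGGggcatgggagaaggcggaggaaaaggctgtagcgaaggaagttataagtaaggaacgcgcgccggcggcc
KLF5 first start, chr13:73054826-73054975, plus strand: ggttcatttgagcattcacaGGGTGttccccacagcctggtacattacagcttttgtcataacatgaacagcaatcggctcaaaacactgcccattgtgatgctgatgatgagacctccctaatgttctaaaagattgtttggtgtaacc
KLF5 second start, chr13:73058855-73059004, plus strand: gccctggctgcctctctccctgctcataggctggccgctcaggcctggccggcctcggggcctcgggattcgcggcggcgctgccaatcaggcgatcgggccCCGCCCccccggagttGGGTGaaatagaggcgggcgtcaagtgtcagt
KLF13, chr15:31326685-31326834, plus strand: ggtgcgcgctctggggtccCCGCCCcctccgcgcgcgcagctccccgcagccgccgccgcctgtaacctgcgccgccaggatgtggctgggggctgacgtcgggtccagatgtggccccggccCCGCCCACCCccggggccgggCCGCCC
The KLF4 stretch holds 2 capital runs, both GGGCGG as written. The first KLF5 start holds 1 CACCC on the opposite strand, while the second holds 1 GC box and 1 CACCC, and KLF13 holds 3 runs, of which the middle one joins both motifs. Which of the KLF5 starts these cells use was not measured, and the deposited values are per gene.

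Most of the remaining KLF genes had few counts. Of 8 others (KLF1, KLF8, KLF12, KLF14, KLF15, KLF16, KLF17 and KLF18), 7 were listed and 3 of these had enough counts to be tested, while KLF18 was not analysed here. The median log2 fold change of the 3 was -0.03. KLF16, another factor that recruits SIN3A, stood at 19.4 ± 0.715 CPM in Ctrl and 19.1 ± 0.823 CPM in the MTA1 group (log2 fold change -0.03 ± 0.059, edgeR adjusted p = 0.72). In FPKM, KLF16 stood at 5.65 ± 0.246 in Ctrl, above KLF13 at 1.69 ± 0.0862, and it did not share a fall that passed. KLF12, a CtBP-binding repressor like KLF3, had 11 to 36 counts and passed as lower (-0.80 ± 0.315, edgeR adjusted p = 0.034), a call lost when MTA1 replicate 2 (adjusted p = 0.167) or Ctrl replicate 1 (0.113) or 3 (0.163) was left out, with library size only (0.0524) and with limma-voom (0.0544). KLF17, with 16 to 36 counts, passed as higher (0.71 ± 0.271, edgeR adjusted p = 0.032), a call lost when MTA1 replicate 1 (adjusted p = 0.192) or Ctrl replicate 2 (0.109) or 3 (0.0679) was left out. With DESeq2 neither passed (adjusted p = 0.131 and 0.158).

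Of the 9 SP genes, 4 were tested, 1 rose and none fell, with a median of 0.08. SP1, the broadly expressed founder that binds the same GC boxes, rose from 18.1 ± 0.517 to 21.9 ± 0.683 CPM (log2 fold change 0.28 ± 0.056, edgeR adjusted p = 3.1e-04). SP3 (-0.11), SP2 (-0.35) and SP4 (0.303) did not pass. Of 12 co-repressors and acetyltransferases that Krüppel-like factors bind, 3 rose, 3 fell and 6 did not pass, with a median of -0.04. The share that passed was near the 58.1% called among all tested genes. The SIN3 scaffold SIN3A rose from 86.5 ± 1.46 to 120 ± 3.61 CPM (0.47 ± 0.041, edgeR adjusted p = 8.3e-09), its paralog SIN3B rose by 0.39 ± 0.081 and the deacetylase HDAC3 by 0.13 ± 0.042. The deacetylase HDAC1 fell (-0.49 ± 0.045), as did the SIN3-associated proteins SAP18 (-0.25 ± 0.038) and SAP30 (-0.14 ± 0.044). HDAC3 lost its call without Ctrl replicate 1 (adjusted p = 0.0662), and SAP30 without Ctrl replicate 3 (0.0605) or MTA1 replicate 2 (0.0671), with no TMM factor (0.161) and on log2(FPKM + 0.1) and log2(FPKM + 1) (0.227 in each). CTBP1 (-0.10) and CTBP2 (-0.02), the partners of KLF3, and the acetyltransferases EP300 (-0.11) and CREBBP (-0.05) did not pass. CTBP1 was near the threshold (edgeR adjusted p = 0.057), and its groups did not overlap, with the MTA1 libraries lower. Over 17 alternatives 2 to 4 genes of this list fell, with 4 under scaling by DESeq2 size factors or by upper quartile, for example.

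Of 16 listed genes known to act upstream of the family, 15 were tested, 6 rose and 5 fell, with a median of 0.15, beside 29.5% higher and 28.6% lower among all tested genes. In the TGF-beta arm, which induces KLF10 and KLF11, the ligand TGFB1 rose from 60.9 ± 2.81 to 105 ± 3.76 CPM (log2 fold change 0.79 ± 0.046, edgeR adjusted p = 1.8e-11) and the signal transducer SMAD3 by 0.44 ± 0.095. The receptors TGFBR1 (0.20 ± 0.051, edgeR adjusted p = 0.0027) and TGFBR2 (0.37 ± 0.126, 0.018) also passed as higher. Neither passed at more than 1.2-fold, and the TGFBR2 libraries of the groups overlapped. The shared partner SMAD4 fell from 36.7 ± 2.32 to 23.6 ± 1.71 CPM (-0.64 ± 0.061, edgeR adjusted p = 2.4e-08), and SMAD2 fell by 0.19 on the log2 scale. SMAD2 lost its call on log2(FPKM + 0.1) and log2(FPKM + 1) (adjusted p = 0.249 and 0.206). In the ERK5 arm, which drives KLF2 and KLF4 in endothelium, the factor MEF2D rose (0.29 ± 0.050), while the kinases MAP2K5 (-0.08) and MAPK7 (0.17) did not pass. Of the hormone receptors that induce KLF9, the thyroid hormone receptor THRA fell (-0.28 ± 0.051), as did the glucocorticoid receptor NR3C1 (-0.19 ± 0.055). NR3C1 lost its call under scaling by library size only (adjusted p = 0.0741) and on log2(FPKM + 0.1) and log2(FPKM + 1) (0.145 and 0.152).

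Of 8 tested enzymes of KLF protein turnover, 2 rose and 2 fell, with a median of 0.08, a share no higher than the 58.1% called among all tested genes. The ubiquitin ligase WWP1, which marks KLF5 and KLF2 for degradation, fell from 9.71 ± 0.993 to 7.46 ± 0.524 CPM (log2 fold change -0.38 ± 0.089, edgeR adjusted p = 0.0012), and the ligase SIAH1 fell (-0.31 ± 0.073). The ligases SMURF1 (0.31 ± 0.070) and BTRC (0.33 ± 0.107) rose, the latter with a call lost without Ctrl replicate 3 (adjusted p = 0.0631) or MTA1 replicate 2 (0.0613) and with DESeq2 (0.0839).

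Of 24 reported target genes, 19 were tested, 4 rose, 7 fell and 8 did not pass, with a median of 0.03. That share of calls is near the one among all tested genes (58.1%). CCND1, the cyclin of early cell-cycle progression, fell from 15.0 ± 0.380 to 6.93 ± 0.202 CPM (log2 fold change -1.11 ± 0.072, edgeR adjusted p = 8.0e-11). ALPI, the intestinal alkaline phosphatase reported as a KLF4 target, fell from 3.65 ± 0.442 to 0.548 ± 0.0701 CPM (-2.74 ± 0.195), the opposite direction to KLF4, and its close paralogs make its counts uncertain. COL1A1, reported as a KLF6 target and also in the fibroblast marker list, fell from 31.6 ± 1.46 to 16.4 ± 0.470 CPM. SMAD7, an inhibitor of TGF-beta signalling reported as a target that KLF10 represses, fell (-0.46 ± 0.144), a call lost without Ctrl replicate 1 (-0.34, adjusted p = 0.0634) and with DESeq2 (0.0525). FASN, the fatty acid synthase (0.33 ± 0.046), PDGFA, a growth factor (0.23 ± 0.064), and IGF1R, a growth factor receptor (0.10 ± 0.040), rose. The call of IGF1R ended when any 1 of the 3 Ctrl libraries, MTA1 replicate 1 or MTA1 replicate 2 was left out (adjusted p = 0.0701 to 0.134), with no filter (0.0725) and with DESeq2 (0.0839). The arrest gene CDKN1A, reported as a target of KLF4 and KLF6, stood at 26.7 ± 2.40 CPM in Ctrl and 27.4 ± 0.451 CPM in the MTA1 group and did not pass (0.04 ± 0.061).

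**Figure D4:**
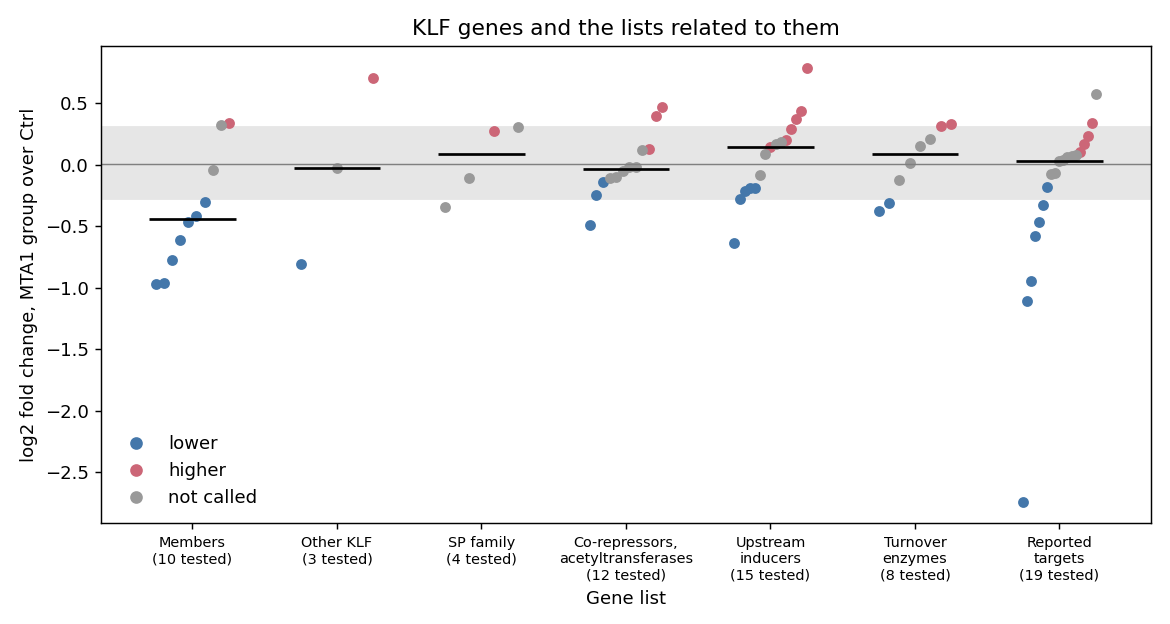
log2 fold change of each tested gene (y axis) in the 10 KLF members and in 6 related gene lists (x axis), coloured by call, with the list median as a black line. The grey band spans the middle 50% of all tested genes (-0.28 to 0.303); the member median of -0.44 lies below it and the other list medians lie inside it.

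Profiles over the 6 libraries were compared for the highest and the lowest member as the distance between centred log2 CPM values. The 3 coding genes nearest to KLF5 were the hair keratin KRT81 (distance 0.062, log2 fold change -0.98), the histone chaperone NAP1L1 (0.070, -0.96) and the phosphodiesterase PDE10A (0.076, -0.97). Nearest to KLF4 were TOM1, a protein of endosomal sorting (0.049, 0.35), a coding gene listed under the clone name RP11-343C2.11 (0.052, 0.31) and the histone demethylase KDM5C (0.057, 0.35). Within a distance of 0.3 lay 212 coding genes for KLF5 and 2282 for KLF4.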

How the data were processed

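Total RNA of 6 PC-3 libraries was sequenced as paired reads after stranded library preparation, per the labels' protocols. The authors deposited whole-number counts per gene, not normalized, and FPKM values rounded to 2 decimals. Not given in the sources used here are the aligner, the counting tool and its strand setting, the build and the annotation, and antisense or overlapping genes are therefore uncertain. DESeq2 appears in the submitters' processing notes with no role. NC columns were matched to the Ctrl samples by elimination and shMTA1 columns by name.

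The test was run with edgeR 4.0.16 in R 4.3.3 (filterByExpr, TMM, quasi-likelihood F test, 2-sided, group as the only term) over all 15423 tested genes, with Benjamini-Hochberg adjustment and a threshold of 0.05. glmTreat gave the test for more than 1.2-fold. CPM values use TMM-scaled library sizes, and SEs and 95% intervals come from the same fit. Alternatives used DESeq2 1.42.0 and limma 3.58.1. Squared differences between replicates of a group averaged 3.23 to 9.02 times the variance from counting alone, and replicates were kept as separate samples. In simulated counts for 15423 genes, 50 genes were changed at each fold and all genes had the same dispersion. There the test recovered 38% of the genes changed 1.2-fold, 78% at 1.5-fold, 92% at 2-fold and 98% at 4-fold. Of its 160 calls 7 were false. As 58.1% of the tested genes passed in the real data, these rates may not hold there.

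The members and gene lists were chosen with earlier results of these data known. Named were all 10 members, MTA1, up to 3 genes per list and direction with the smallest p, list genes whose role is described, and the 3 coding genes with the nearest profile to the highest and lowest member. The level of 1 gene from the PC-3 marker list is not reported here.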

Additional observations from a re-analysis of the deposited data

How the results depend on the processing

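Of 170 values of the 10 members under alternatives, 157 kept their direction and their side of the threshold, 9 lost the call (KLF2 and KLF11) and 4 changed sign (KLF3, at 0.022 with library size only, 0.0095 on log2(FPKM + 0.1), 0.0051 on log2(FPKM + 1) and between -0.13 and 0.0057 when 1 library was left out). KLF16 turned positive in the same settings (0.041, 0.041, 0.035 and between -0.064 and 0.0055). The count of members that fell ranged from 5 to 7 and 1 rose under each of the 17 alternatives. Past 1.2-fold, 1 member was higher with scaling by library size only, and 3 and 2 were lower on log2(FPKM + 0.1) and log2(FPKM + 1), which change the scaling, the test and the pseudocount together (KLF9 -0.78 and -0.37, and on the latter KLF6 -0.26, KLF13 -0.24, KLF2 -0.16 and KLF11 -0.11); the cause was not tested. Of all genes called, 50.8% were higher with TMM, 60.1% with library size only and on log2(FPKM + 0.1), and 60.3% on log2(FPKM + 1). With the replicate number as a block 9139 genes passed against 8954 without it, and the turnover enzymes had 4 higher, but no member's call changed. Same-numbered libraries correlated at 0.0666, -0.0207 and 0.0191, and differently numbered ones at -0.0787 to 0.062. With 3 libraries per group these values cannot settle whether same-numbered libraries were paired. The cause of the following shifts was not tested. The other KLF genes had 0 lower with library size only, the 1 CPM filter, DESeq2, limma-voom and both FPKM scales, and 0 higher with the 1 CPM filter and DESeq2. The SP family had 1 lower with no filter and with DESeq2. Upstream inducers had 3 lower with library size only and 2 on each FPKM scale. Turnover enzymes had 4 higher with library size only and 1 with DESeq2, and reported targets had 2 higher with no filter and with DESeq2. Leaving out 1 library in turn gave 0 to 1 other KLF genes higher and 0 to 1 lower, 0 to 2 SP genes lower, 1 to 4 turnover enzymes higher and 2 to 5 targets higher. Depth limits KLF2 and KLF7, where counting alone gives a spread of 15.6% and 14.6%, against 2.23% for KLF10.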
